A study of Mus musculus with 8 samples.

Results

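A set of 10 genes of the inflammasome, pyroptosis and necroptosis machinery were followed, chosen by name among 54752 genes counted in the right cerebral cortex of 8 mice. They were the sensors Nlrp3, Nlrc4 and Naip2, the adaptor Pycard, the inflammatory caspases Casp1 and Casp4, the pore-forming protein gene Gsdmd, the switch Casp8, and the necroptosis pair Ripk3 and Mlkl. All mice were adult male C57BL/6 mice (C57BL/6 J in the study's methods) of WT genotype, with 1 mouse per RNA-seq library. The 4 BCAS mice had bilateral carotid artery stenosis, in which microcoils narrow both common carotid arteries and blood flow to the forebrain falls. The narrower coil lay on the right side, from which the cortex was taken. The 4 sham mice underwent the same operation without coils, and both groups were sampled 3 weeks after surgery. The model narrows both arteries of otherwise healthy mice, so the values describe the right cortex at a single time point.

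An inflammasome is a protein platform that forms when a cytosolic sensor meets a danger or microbial signal. The sensor recruits caspase-1, directly or through the adaptor ASC, and caspase-1 then cuts pro-interleukin-1 beta and gasdermin D, whose cut fragment opens pores in the plasma membrane, a lytic death called pyroptosis. Necroptosis is another lytic death, in which RIPK3 phosphorylates MLKL and caspase-8 holds the pathway in check. In the brain these genes are best known from microglia and other myeloid cells. Activation of all these proteins happens by assembly, cleavage or phosphorylation, none of which is measured by RNA-seq.

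The genome placed the 10 genes at separate loci, apart from Casp1 and Casp4, which are neighbours on chromosome 9. In mm10 with GENCODE vM20 names, Casp1 lies at chr9:5298517-5307265 and Casp4 at chr9:5308828-5336783, both on the plus strand. Naip2 (chr13:100144063-100202092, minus strand) lies beside its relatives Naip5 and Naip6, whereas its signalling partner Nlrc4 is on chromosome 17 (chr17:74425438-74459142, minus strand). RefSeq promoters of GRCm38.p6, 250 bases before to 50 bases after an annotated start, were at hand for 9 of the 10 genes in 11 entries; Gsdmd had no entry. A search on both strands for an interferon-stimulated response element core (GAAA, any 2 bases, GAAA), a GAS element (TTCNNNGAA) and a kappaB element (GGGA, any base, TTTCC) found no match in the 11 entries. Those letters occur in 3.44%, 8.30% and 0.411% of 32851 mouse promoters, and a missing match says only that they are not in this window. The kappaB letters are a narrow form: the wider kappaB consensus, searched after the sequences had been read, matched both Casp4 entries and 1 of the 2 Nlrp3 entries, and it occurs in 8.46% of all promoters. Another string, the PU.1-type ETS core AGGAAGTG, was added after the sequences had been read; it occurs in 4.07% of all promoters. Its matches lay in Naip2, Nlrc4 and Pycard, on the strand opposite to the gene, and began at -13, -11 and -45 relative to the annotated start. These 3 sequences are printed 5′ to 3′ on the gene's strand, because Naip2 and Nlrc4 act in one complex and changed so differently, with the match in capitals. They are the 250 bases before the RefSeq start of Naip2 (chr13:100202123-100202372) and Pycard (chr7:127993868-127994117) and the 30 bases before that of Nlrc4 (chr17:74459109-74459138), all on the minus strand.
Naip2: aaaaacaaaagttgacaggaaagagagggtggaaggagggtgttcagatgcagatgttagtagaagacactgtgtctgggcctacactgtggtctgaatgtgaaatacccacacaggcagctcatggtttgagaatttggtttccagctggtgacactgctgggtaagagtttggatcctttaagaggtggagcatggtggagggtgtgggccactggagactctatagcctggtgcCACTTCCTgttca
Nlrc4: aagagaagaacccaccaggCACTTCCTttt
Pycard: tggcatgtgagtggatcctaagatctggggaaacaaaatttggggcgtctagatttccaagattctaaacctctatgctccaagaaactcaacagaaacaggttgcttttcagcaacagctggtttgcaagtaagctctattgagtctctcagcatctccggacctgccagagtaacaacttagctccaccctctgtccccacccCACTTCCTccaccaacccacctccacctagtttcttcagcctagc
These distances hold for RefSeq starts only: by the GENCODE gene ends given above, the Nlrc4 match lies inside the gene and the Naip2 match upstream of it. Such a match is a description, not a binding site.

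The libraries held between 16759364 and 21794435 counted read pairs, and 3 counts in the smallest library correspond to 0.179 CPM, the counts scaled to a common library size. Cortical neuron markers were present in every library. Across all genes, edgeR tested 17136 genes and called 1877 of them (11.0%) higher and 220 (1.28%) lower in BCAS mice, with both a Benjamini-Hochberg adjusted p below 0.05 and a change of more than 1 on the log2 scale in either direction. The median log2 fold change of all tested genes was -0.01. Values below are CPM after TMM scaling, given for mice 1 to 4 of a group in order.

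Of the 10 genes, 9 were upregulated in BCAS mice, and Nlrc4 did not pass the test. Beside the 9 calls stands the background of 11.0% of all tested genes called higher. The median log2 fold change of the 10 genes was 2.89, between 0.01 for Nlrc4 and 4.26 for Naip2. In 8 of the 10 genes every BCAS mouse lay above every sham mouse, which held for 18.5% of all tested genes; Mlkl and Nlrc4 overlapped between groups. All 10 passed the filter on low counts, but Ripk3 (1 or 2 counts in each sham library), Casp4 (6 to 11) and Mlkl (4 to 14) passed through their counts in BCAS mice. The count and the median are therefore given as descriptions, as are the separation of the groups and the adjusted p-values of these 3 genes. With a filter of 10 counts in every library these 3 genes were not tested, and 6 of the other 7 were called higher.

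**Figure D1:**
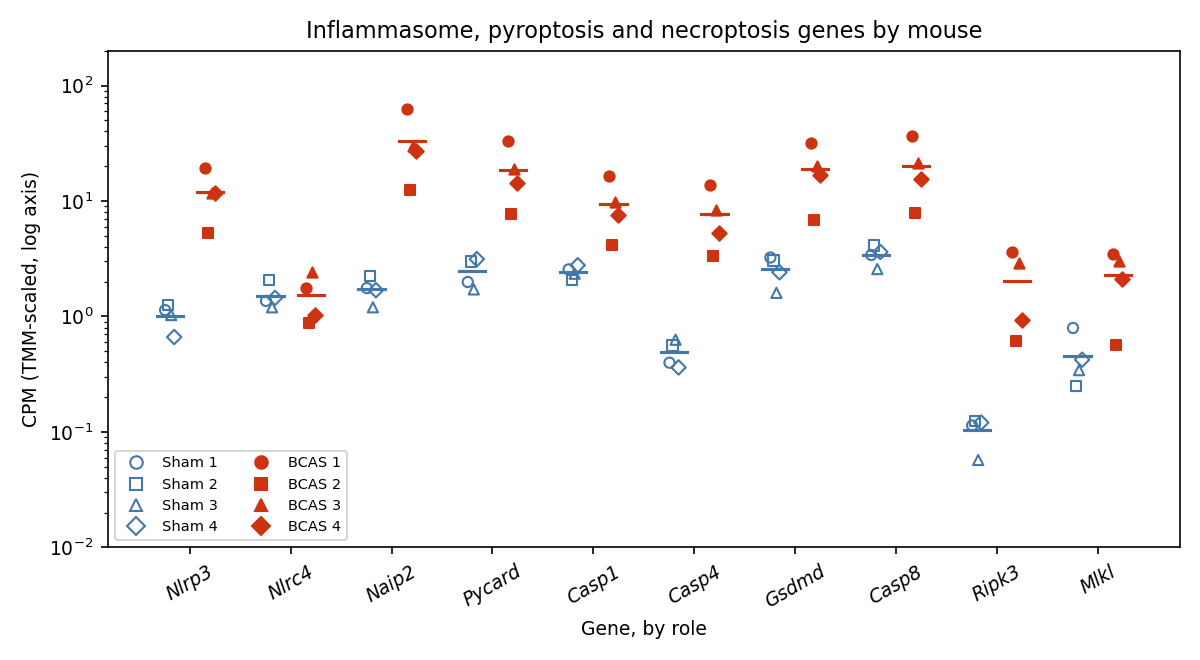
CPM (log axis) of the 10 genes in each of the 4 sham mice (open blue) and 4 BCAS mice (filled red), with horizontal lines at the group means and one symbol shape per mouse number, which does not pair mice. The BCAS mice lie above the sham mice in 8 genes, whereas Nlrc4 had a mean of 1.52 CPM in both groups.

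Among the sensors, Nlrp3, which responds to a broad range of cellular damage, had few counts in sham cortex. It had 1.14, 1.25, 1.03 and 0.664 CPM in sham mice and 19.3, 5.31, 11.6 and 11.7 CPM in BCAS mice. Even the lowest BCAS mouse, mouse 2, was therefore above every sham mouse. The mean rose from 1.02 ± 0.253 to 11.98 ± 5.72 CPM (SD, n = 4 each), a log2 fold change of 3.55 ± 0.40 (SE; edgeR adjusted p = 0.00178).

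Naip2, a receptor for the rod protein of bacterial secretion systems, had, together with Ripk3, one of the 2 largest log2 fold changes among the 10 genes in the edgeR fit. Its values were 1.76, 2.25, 1.20 and 1.69 CPM in sham mice and 62.3, 12.5, 30.1 and 27.0 CPM in BCAS mice. The groups did not overlap, and BCAS mouse 1 was the highest and BCAS mouse 2 the lowest of its group. The mean went from 1.72 ± 0.428 to 33.0 ± 21.0 CPM (SD, n = 4 each), a log2 fold change of 4.26 ± 0.49 (SE; edgeR adjusted p = 0.00181). With limma-voom, Naip2 was at 4.07, and Casp4 (3.77) stood above Ripk3 (3.66).

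Nlrc4, the scaffold that NAIP proteins nucleate, behaved differently. It had 1.36, 2.06, 1.20 and 1.45 CPM in sham mice and 1.76, 0.876, 2.43 and 1.04 CPM in BCAS mice. BCAS mice 2 and 4 were below all sham mice and BCAS mouse 3 was above them, so the groups overlapped on both sides. The log2 fold change was 0.01 ± 0.36 (SE; edgeR adjusted p = 0.985), and its sign turned under other scalings, for example to -0.01 with upper-quartile scaling and -0.07 with limma-voom.

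The ratio of Naip2 to Nlrc4, picked after both values were seen and so given without a test, was 1.29, 1.09, 1.00 and 1.17 in sham mice. In BCAS mice it was 35.5, 14.3, 12.4 and 26.1. Every BCAS mouse was far above the sham range.

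Naip5 and Naip6 rose together with Naip2. Naip5, a flagellin receptor, had 2.05, 1.75, 1.66 and 2.47 CPM in sham mice against 46.8, 11.6, 27.8 and 22.7 CPM in BCAS mice, that is, a log2 fold change of 3.78 ± 0.41 (SE; edgeR adjusted p = 0.00156). Naip6 had 0.796, 0.749, 0.629 and 0.603 CPM against 29.5, 5.25, 18.5 and 13.9 CPM, a log2 fold change of 4.58 ± 0.52 (SE; edgeR adjusted p = 0.00181). Naip1, named after its values were seen, had at most 7 counts in a library and was not tested. NAIP genes are close copies, and 4.44% of the 100-base windows of the Naip2 transcripts also occur in another gene, so reads there cannot be split with certainty. The summed level of Naip1, Naip2, Naip5 and Naip6 does not depend on how counted reads are divided among these genes. It would still miss reads of shared windows that were left uncounted, which was not checked, and it leaves out Naip3, which holds some of the shared windows. It lay between 3.49 and 4.95 CPM in sham mice and between 29.8 and 139 CPM in BCAS mice, a 17.3-fold ratio of means. Naip2 made up 34.1% to 47.4% of the sum in sham mice and 39.3% to 44.9% in BCAS mice, ranges that overlap.

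**Figure D2:**
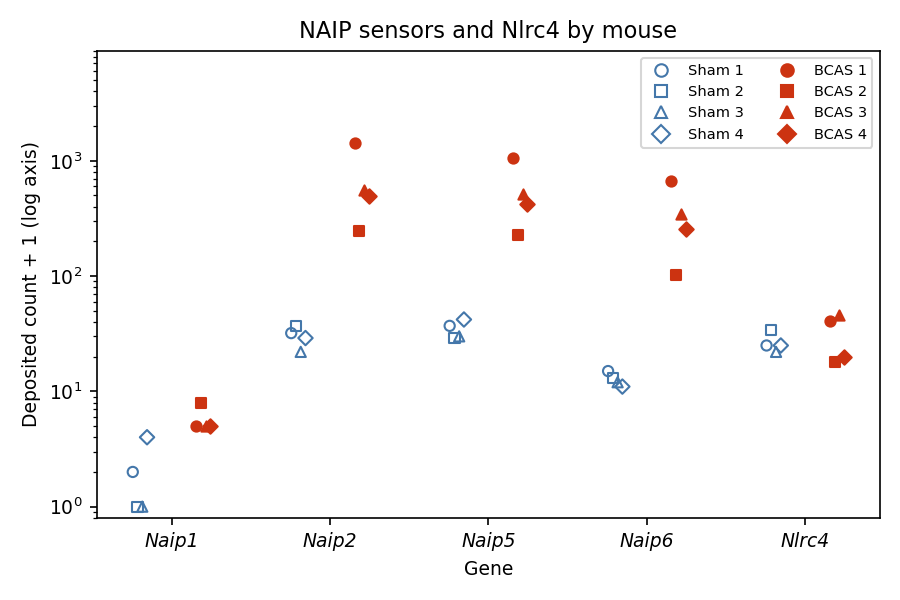
Deposited counts plus 1 (log axis) of 4 NAIP genes and Nlrc4 in each sham mouse (open blue) and BCAS mouse (filled red). Naip2, Naip5 and Naip6 are separated between the groups, whereas Nlrc4 overlaps (24, 33, 21 and 24 counts in sham mice; 40, 17, 45 and 19 counts in BCAS mice).

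Pycard encodes ASC, the adaptor that joins NLRP3 to caspase-1. It had 1.99, 3.00, 1.72 and 3.14 CPM in sham mice and 32.8, 7.73, 18.9 and 14.4 CPM in BCAS mice. All BCAS mice were above the sham mice, with mouse 2 nearest to them. The log2 fold change was 2.91 ± 0.43 (SE; edgeR adjusted p = 0.00315). Over 12.8% of its exon bases Pycard overlaps the gene Gm45205 on the opposite strand, and the counting named no strand, so the reads of the shared stretch could not be assigned.

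Casp1, the protease at the end of the canonical inflammasome, had the smallest log2 fold change of the 9 upregulated genes in the edgeR fit. Its values were 2.56, 2.06, 2.35 and 2.78 CPM in sham mice and 16.4, 4.12, 9.78 and 7.52 CPM in BCAS mice. The groups did not overlap, and the log2 fold change was 1.96 ± 0.38 (SE; edgeR adjusted p = 0.00819). Casp1 lost its call in a test against a log2 fold change of 1 (glmTreat adjusted p = 0.0856). With limma on log2(CPM + 1), its change of 1.47 was above those of Ripk3 (1.31) and Mlkl (1.09).

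Casp4, whose mouse product is also called caspase-11 and senses lipopolysaccharide in the non-canonical pathway, had between 6 and 11 counts in sham libraries. Its values were 0.398, 0.562, 0.629 and 0.362 CPM in sham mice and 13.7, 3.35, 8.32 and 5.29 CPM in BCAS mice. No BCAS mouse came near the sham range, and the log2 fold change was 3.96 ± 0.48 (SE; edgeR adjusted p = 0.00198). Because Casp4 passed the low-count filter through its BCAS counts, both are descriptions.

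Gsdmd, the substrate of both caspases and the pore of pyroptosis, had 3.24, 3.06, 1.602 and 2.41 CPM in sham mice and 31.96, 6.90, 20.1 and 16.7 CPM in BCAS mice. The groups were apart. The log2 fold change was 2.88 ± 0.44 (SE; edgeR adjusted p = 0.00355), close to that of Pycard.

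On the necroptosis side, Casp8, which blocks the pathway and can also cleave gasdermin D, rose as well. It had 3.41, 4.12, 2.57 and 3.62 CPM in sham mice and 36.2, 7.83, 21.4 and 15.6 CPM in BCAS mice. Each BCAS mouse exceeded each sham mouse, and the log2 fold change was 2.57 ± 0.42 (SE; edgeR adjusted p = 0.00458).

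Ripk3, the kinase that commits a cell to necroptosis, was at the limit of detection in sham cortex. The sham libraries held 2, 2, 1 and 2 counts, and the BCAS libraries 83, 12, 54 and 17 counts. The ratio of the pooled counts per library size was 20.3, with an exact 95% interval from 9.63 to 51.2 that covers counting error only. The fitted log2 fold change was 4.21 ± 0.73 (SE; edgeR adjusted p = 0.00531), the least precise of the 10. It is a description, because Ripk3 passed the low-count filter through its BCAS counts. On the log2(CPM + 1) scale, which understates the change of low genes, limma gave 1.31 for Ripk3 (adjusted p = 0.0185), 2.40 for Casp4 (adjusted p = 0.00301), 2.58 for Nlrp3 (adjusted p = 0.00200) and 1.09 for Mlkl (adjusted p = 0.0279).

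Mlkl, the executioner that RIPK3 phosphorylates, had 0.796, 0.250, 0.343 and 0.422 CPM in sham mice and 3.47, 0.567, 3.02 and 2.12 CPM in BCAS mice. BCAS mouse 2, with 11 counts, lay below sham mouse 1, with 14 counts, so the groups overlapped. The log2 fold change of 2.32 ± 0.58 (SE; edgeR adjusted p = 0.0188) passed both thresholds, but Mlkl passed the low-count filter through its BCAS counts, so it is a description. The call was lost without sham mouse 2 (adjusted p = 0.0580), sham mouse 4 (adjusted p = 0.0560) or BCAS mouse 3 (adjusted p = 0.0503). It was also lost with limma-voom (adjusted p = 0.0556) and in a test against a log2 fold change of 1 (glmTreat adjusted p = 0.152).

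Levels can be set between genes only per length, so CPM was divided by kilobases of merged exons. Merged exons pool all annotated transcripts of a gene and can be longer than the expressed one, which was not determined. Pycard had 3800 bases in 3 merged exons within chr7:127989708-127993867, and Casp1 had 1497 bases. The order between genes depends on these lengths. In sham mice Casp1 had the highest level, 1.63 ± 0.204 CPM per kilobase (SD, n = 4). Casp8 (1.19), Gsdmd (1.08), Pycard (0.647), Naip2 (0.356), Nlrc4 (0.316), Nlrp3 (0.251), Mlkl (0.197), Casp4 (0.131) and Ripk3 (0.0454 CPM per kilobase) followed. Neighbours in this order overlapped between mice, except that Casp4 and Ripk3 did not. The order by group mean was another one in BCAS mice. There Gsdmd stood first at 7.97 ± 4.35 CPM per kilobase (SD, n = 4), followed by Casp8 (7.01), Naip2 (6.80), Casp1 (6.31), Pycard (4.86), Nlrp3 (2.95), Casp4 (2.07), Mlkl (0.998), Ripk3 (0.885) and Nlrc4 (0.317 CPM per kilobase). Casp1 moved down the order and Naip2 up, while Nlrc4 moved to last place. The BCAS mice varied so much that the order of their means is a description.

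A total of 5 pairs of genes were compared by the ratio of their levels within each library, which removes what a library shares. The pairs act at adjacent steps, except Casp4 and Casp1, which act in parallel pathways. With 4 against 4 mice the exact permutation test cannot go below p = 0.0286, and p-values were adjusted over the 5 pairs unless stated. The log2 ratio of Casp4 to Casp1 differed by 1.79, from a mean of -2.11 ± 0.466 in sham mice to -0.32 ± 0.123 in BCAS mice (SD, n = 4 each). Casp4 had 6 to 11 counts in each sham library and passed the low-count filter through its BCAS counts, so this ratio is a description; with a prior count of 0.5 in place of 2 the difference was 1.96. The ratio of Gsdmd to Casp1 differed by 0.93, without overlap of the groups (two-sided exact p = 0.0286). Its adjusted p was 0.0476 over the 5 pairs and 0.0571 over the 2 pairs without Casp4, Ripk3 or Mlkl, a choice made after seeing the data, so the call depends on which pairs are counted. The ratio of Nlrp3 to Pycard differed by 0.60 (exact p = 0.143, adjusted p = 0.143) with overlapping groups, and by 0.30 without sham mouse 4. Ratios with Ripk3 rest on 1 or 2 counts in each sham library and on the prior count, and so are given as descriptions. The log2 ratio of Ripk3 to Casp8 differed by 0.68, or by 1.28 with a prior count of 0.5, and that of Mlkl to Ripk3 by -1.08.

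**Figure D3:**
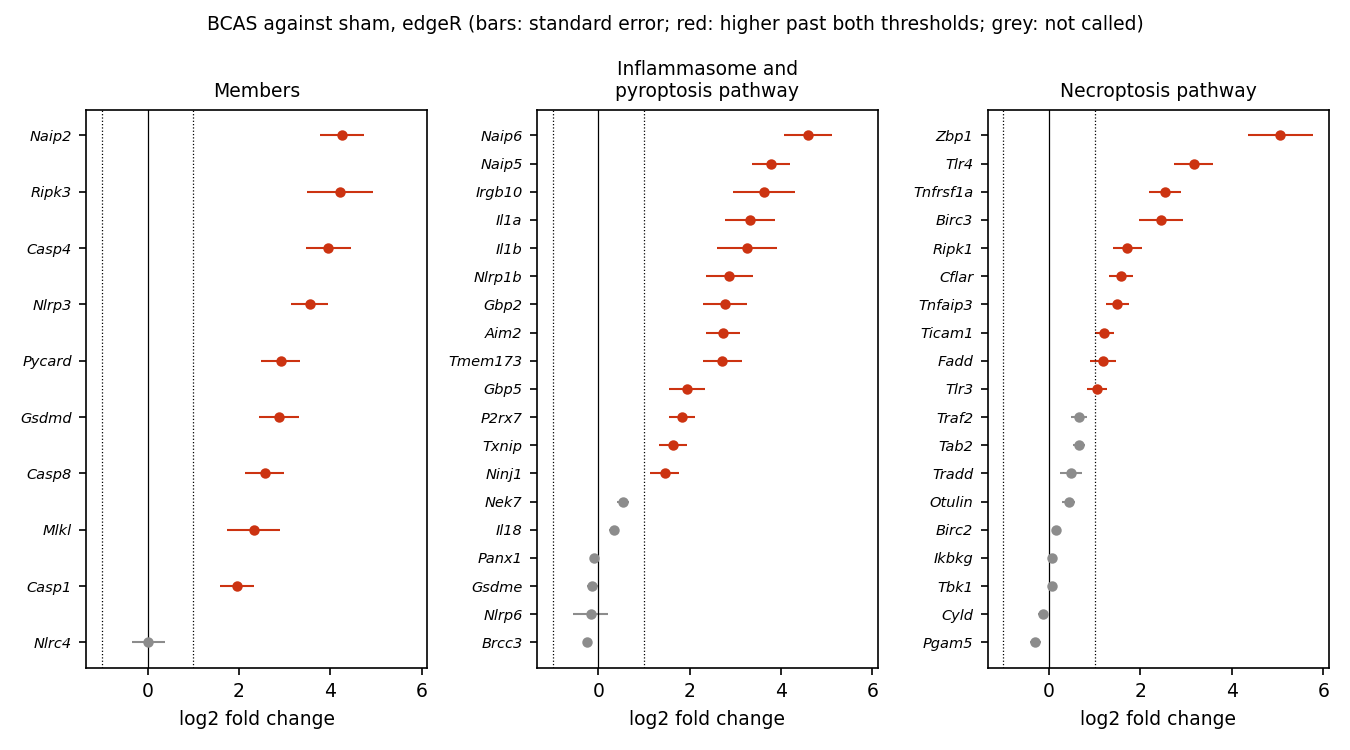
Log2 fold changes of BCAS against sham mice with their standard errors (edgeR, n = 4 each) for the 10 genes and the tested genes of 2 lists. Red points passed both thresholds, grey points did not, and dotted lines mark log2 fold changes of -1 and 1; Naip2 (4.26), Naip6 (4.58) and Zbp1 (5.06) lead their panels and Nlrc4 lies at 0.01.

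The surrounding pathways were described by lists of other genes, which were chosen with earlier results of these data known. Of 26 further inflammasome and pyroptosis genes, 19 were tested, 13 were called higher, beside 11.0% of all tested genes, none lower, and 6 did not pass. The median log2 fold change of the 19 was 1.94, beside -0.01 for all genes. Of the 13, Nlrp1b, Il1b, Il1a and Irgb10 passed the low-count filter only with their BCAS counts. The count and the median are therefore descriptions, as are the adjusted p-values of Il1b and Il1a below. The upregulated ones began at the sensors: Aim2, a receptor for cytosolic DNA, went from a mean of 3.30 to 21.9 CPM (log2 fold change 2.74 ± 0.37 SE; edgeR adjusted p = 0.00254). The cytokine substrate Il1b had 0.170, 0.499, 0.629 and 0.121 CPM in sham mice and 5.71, 1.08, 4.81 and 2.07 CPM in BCAS mice, that is, a log2 fold change of 3.25 ± 0.66 (SE; edgeR adjusted p = 0.00924). Il1a, the sister cytokine, rose by a log2 fold change of 3.31 ± 0.54 (SE; edgeR adjusted p = 0.00438). P2rx7, the ATP-gated channel that triggers NLRP3, rose by 1.83 ± 0.29 (SE; edgeR adjusted p = 0.00410), and Ninj1, which ruptures the membrane of dying cells, rose by 1.45 ± 0.32 (SE; edgeR adjusted p = 0.0132). Among those that did not pass, and named after their values were seen, Il18, the other cytokine cut by caspase-1, had 15.9 CPM in sham and 20.1 CPM in BCAS mice. Its log2 fold change of 0.34 ± 0.10 (SE; edgeR adjusted p = 0.0284) was under the fold threshold. Gsdme, another gasdermin, had a log2 fold change of -0.13 ± 0.12 (SE; edgeR adjusted p = 0.414).

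Of 20 further necroptosis genes, 19 were tested, 10 were called higher, beside 11.0% of all tested genes, none lower, and 9 did not pass. Their median log2 fold change was 1.06, beside -0.01 for all genes, and both are descriptions. Zbp1, a nucleic acid sensor that engages RIPK3 directly, had 0.455, 0.811, 0.572 and 0.181 CPM in sham mice and 34.9, 4.69, 19.3 and 9.15 CPM in BCAS mice. Its log2 fold change was 5.06 ± 0.71 (SE; edgeR adjusted p = 0.00280), the largest on this list. With 3 to 13 counts in each sham library, Zbp1 passed the low-count filter only with its BCAS counts, so this result is a description. Tnfrsf1a, the receptor for tumour necrosis factor, rose by 2.53 ± 0.35 (SE; edgeR adjusted p = 0.00254). Ripk1, the kinase upstream of RIPK3, rose by 1.71 ± 0.31 (SE; edgeR adjusted p = 0.00632), and Cflar, which encodes the caspase-8 regulator cFLIP, rose by 1.57 ± 0.27 (SE; edgeR adjusted p = 0.00527). Tnf itself, named after its values were seen, was too low to test, with 2, 0, 3 and 3 counts in sham mice and 142, 5, 44 and 26 counts in BCAS mice.

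Of 7 other caspases, 6 were tested and 3 were called higher, again beside 11.0% of all tested genes. Among them was Casp12, a neighbour of Casp4 in the inflammatory caspase cluster, which went from 1.89 to 7.20 CPM, a log2 fold change of 1.93 ± 0.37 (SE; edgeR adjusted p = 0.00740). Casp1 (1.96 ± 0.38) lay within the standard error of Casp12; the difference between them was not tested.

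The 4 BCAS mice differed strongly from one another. Of the 10 genes, 9 had their highest value in BCAS mouse 1, the exception being Nlrc4 with its highest in BCAS mouse 3, and all 10 had their lowest BCAS value in mouse 2. The 9 upregulated genes stood at 6.74 to 36.1 times their sham means in mouse 1, 1.25 to 7.26 times in mouse 2, 4.02 to 28.0 times in mouse 3 and 3.09 to 15.6 times in mouse 4. The summed level of 14 microglial identity genes, such as Tmem119 and P2ry12, was 12.5, 3.46, 6.14 and 6.68 times its sham mean in the same 4 mice. All 5 lists of immune markers had their highest sum in BCAS mouse 1 and their lowest BCAS sum in mouse 2.

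**Figure D4:**
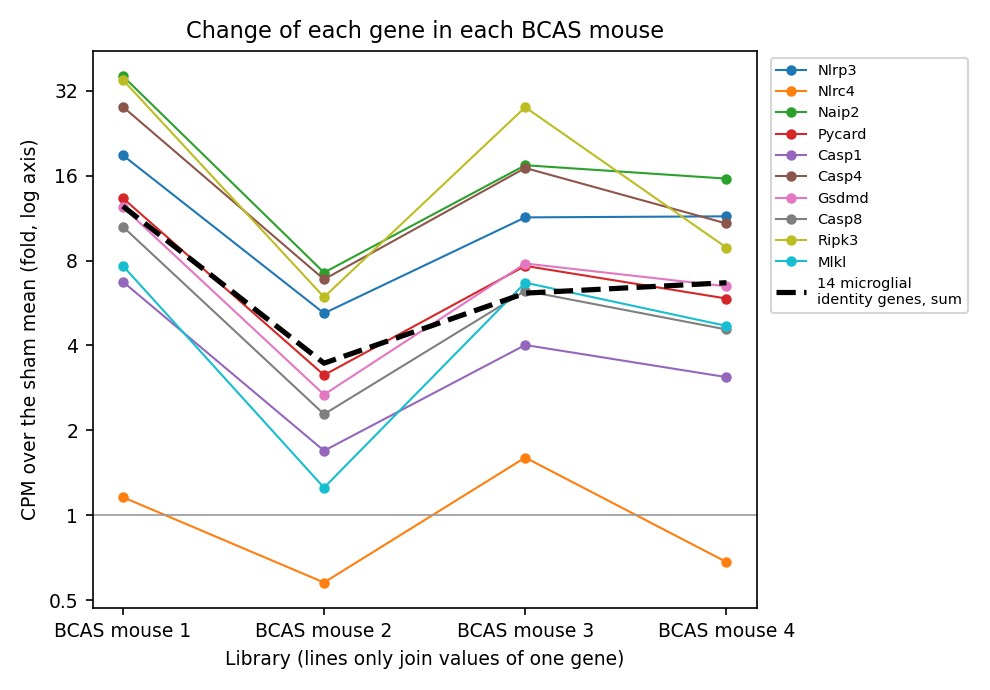
CPM of each of the 10 genes in each BCAS mouse, as a multiple of the sham mean (log axis), with the sum of 14 microglial identity genes as a dashed line; lines only join values of one gene. Mouse 1 is highest and mouse 2 lowest for 9 genes, and Nlrc4 stays between 0.577 and 1.601 times its sham mean.

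Markers of immune cells rose along with the 9 genes, whereas few or none of the markers of other cell types were called higher. Beside the calls below stand 11.0% of all tested genes called higher and 1.28% called lower. All 14 microglial identity genes were called higher, with summed levels of 451 to 540 CPM in sham mice and 1736 to 6262 CPM in BCAS mice, a 7.19-fold ratio of means. All 12 genes of myeloid activation were called higher (116 to 126 against 674 to 3850 CPM), as were 6 of 8 markers of border macrophages (41.4 to 47.5 against 77.6 to 363 CPM). Of 10 monocyte and neutrophil markers, 4 could be tested and all 4 were called higher (83.7 to 105 against 180 to 723 CPM); Ly6g, which defines neutrophils and was named after its values were seen, was at 0 in all libraries. Of 10 lymphocyte markers, 2 could be tested and both were called higher (2.40 to 5.43 against 6.34 to 61.4 CPM). Of the genes called in these immune lists, 4 of 12, 2 of 6, 2 of 4 and 1 of 2, in the order given after the identity genes, passed the low-count filter only with their BCAS counts. Of 8 astrocyte markers, 2 were called higher, beside 11.0% of all tested genes (5289 to 6151 against 6984 to 10024 CPM). Of 10 cortical neuron markers, 2 were called lower, beside 1.28% of all tested genes (summed level 5483 to 7053 against 2170 to 4605 CPM). By adjusted p alone, 7 of the 10 were lower. None of the 8 oligodendrocyte, 8 endothelial or 10 striatum and choroid plexus markers was called. Sham mouse 3 stood apart in 10 striatum and choroid plexus markers (1045 CPM against 235 to 415 CPM in the other sham mice) and in 8 oligodendrocyte markers (3939 against 6032 to 6300 CPM), and 6 of the 10 genes had their lowest sham value in it. Without sham mouse 3, again 9 of the 10 genes were called higher, with a median log2 fold change of 2.73. In bulk tissue, more cells of a type and more RNA per cell cannot be told apart, and the part of these cell types in the results was not tested.

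The 10 genes were therefore also compared relative to the microglial identity genes. Log2(CPM + 1) minus the mean of the 14 identity genes was tested with limma, and as an alternative chosen after seeing the data, counts were scaled to the summed microglial counts in edgeR. By limma, 1 of the 10 genes was higher, beside 0.531% of all tested genes, and 3 were lower, beside 94.6% of all tested genes, so the lower count says nothing about these 10. With edgeR 2 were higher, beside 1.16%, and 1 was lower, beside 93.6%. Naip2 was higher in both, by 1.06 ± 0.30 (SE; limma adjusted p = 0.00244) and 1.36 ± 0.36 (SE; edgeR adjusted p = 0.00104) on the log2 scale, and its groups did not overlap. The limma difference fell just under the fold threshold, to 0.99, without BCAS mouse 1 or without BCAS mouse 3. Against 12 myeloid activation genes in place of the identity genes, none of the 10 was higher, beside 0.0175% of all tested genes, and 9 were lower, beside 99.4%, so this lower count says nothing about the 10 either. Naip2 was then at -1.01 (limma adjusted p = 0.0595).

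Nlrc4 was lower relative to the identity genes by both methods, at -2.41 ± 0.36 (SE; limma adjusted p = 5.19e-06) and -2.68 ± 0.49 (SE; edgeR adjusted p = 2.40e-05), and the median of all tested genes on the limma scale was -2.39. Pycard differed by -0.04 ± 0.31 (SE; limma adjusted p = 0.908), Gsdmd by -0.06 ± 0.31 (SE; limma adjusted p = 0.863) and Casp8 by -0.29 ± 0.31 (SE; limma adjusted p = 0.352), none of which passed. Casp1 had -0.91 ± 0.31 (SE; limma adjusted p = 0.00798), which was under the fold threshold; without BCAS mouse 3 it passed, at -1.01 (limma adjusted p = 0.00868). The values of 4 genes with low sham levels depended on the method. Nlrp3 was at 0.19 ± 0.31 (SE; limma adjusted p = 0.551) and at 0.72 ± 0.40 (SE; edgeR adjusted p = 0.0897), and at 0.51 with limma and a pseudocount of 0.5. Casp4 was at 0.01 ± 0.33 (SE; limma adjusted p = 0.968) and at 1.10 ± 0.46 (SE; edgeR adjusted p = 0.0287, called higher). Ripk3 was at -1.07 ± 0.36 (SE; limma adjusted p = 0.00736, called lower) and at 1.39 ± 0.69 (SE; edgeR adjusted p = 0.0592), and Mlkl at -1.30 ± 0.35 (SE; limma adjusted p = 0.00138) and -0.53 ± 0.54 (SE; edgeR adjusted p = 0.347). The added 1 CPM is about the sham mean of Nlrp3 and exceeds those of the other 3, and no direction is given for Casp4 or Ripk3 relative to microglia.

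**Figure D5:**
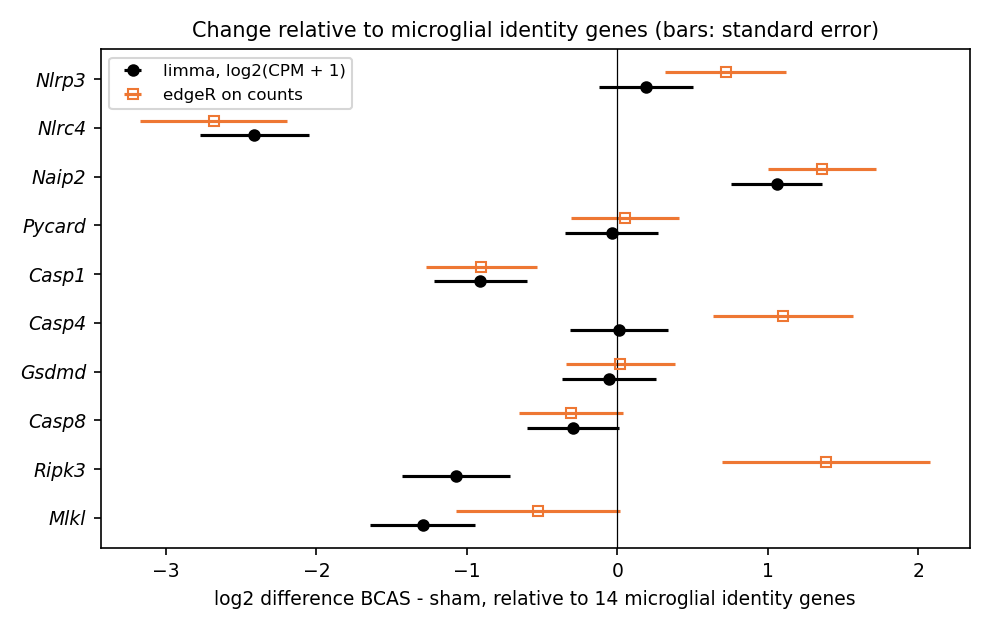
Log2 difference between BCAS and sham mice relative to 14 microglial identity genes, with standard errors, by limma on log2(CPM + 1) (black circles) and by edgeR on counts (open orange squares), n = 4 each. Naip2 lies to the right and Nlrc4 to the left of 0 by both methods, whereas Ripk3 changes side (-1.07 and 1.39).

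For each of the 10 genes, the tested genes with the most similar profile were found by the root-mean-square difference of log2 CPM, relative to the sham mean, over the 8 libraries. All points share the 4 sham libraries and the spread between BCAS mice. The profile nearest to Naip2 was Fcer1g, a signalling chain of immune receptors (difference 0.0815 on the log2 scale). Nlrp3 was nearest to the Fc receptor gene Fcgr3 (0.167) and then to Plek (0.173). Pycard was nearest to Mlph (0.124) and then to the sensor gene Aim2 (0.160). Casp1 was nearest to Wipf1 (0.107), Gsdmd to Isg15 (0.145), and Casp8 to Rasa4 (0.128). Ripk3 (Gdf15, 0.223), Nlrc4 (Eepd1, 0.240) and Mlkl (Col7a1, 0.279) lay farther from their nearest genes, as did Casp4 (Traf3ip3, 0.185). Within the 10 genes, Pycard and Gsdmd were each other's nearest (0.288), whereas the nearest to Nlrc4, Casp1, was at a distance of 1.36.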

How the data were processed

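Whole right cortex of 4 sham and 4 BCAS mice was sequenced, 1 mouse per library. According to the methods, the authors trimmed paired reads (Trim Galore), aligned them to mm10 (HISAT2), sorted them (SAMtools 1.9) and counted them with featureCounts. The deposited values are raw counts per gene, without normalization; the file headers name featureCounts 2.0.1, GENCODE vM20 and no strand option, whereas the submitters' processing notes name version 1.6.3. Of 54752 gene IDs, 54723 matched a symbol. Library totals were 16759364 to 21794435.

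Counts were analysed in R 4.3.3 with edgeR 4.0.16 (TMM, filterByExpr with minimum count 10 and minimum total 15, quasi-likelihood F-test, no covariates). P-values were adjusted by Benjamini-Hochberg over 17136 genes. Calls required an adjusted p below 0.05 together with a log2 fold change beyond 1 in either direction. Values relative to microglial genes used limma 3.58.1 on log2(CPM + 1). DESeq2 1.42.0 and limma-voom were alternatives. Standard errors were derived from the test statistics. The scripts were tested on simulated data. Pairs of genes were compared by two-sided exact permutation tests (Python 3.11.15, scipy 1.17.1). Replicates were separate mice, and no 2 libraries were identical. The genes and lists were chosen with earlier results of these data known. The text names the 10 genes, genes of the 3 pathway lists that were called (12 in full), and the 2 genes nearest in profile with a mean of at least 1 CPM, except that results for some genes are not reported here; further genes, among them Naip1, Tnf, Ly6g, Il18 and Gsdme, were named after their values were seen. Promoter sequences are from RefSeq.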

Additional observations from a re-analysis of the deposited data

Results flagged for a closer look

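For each of the 10 genes, the highest and lowest mouse of each group was compared with the others by Dixon's test. Of 20 groups tested, 1 had a value apart from the rest, where chance gives about 1 in 20. This was the Ripk3 level of sham mouse 3, at 0.0572 CPM, below 0.114 to 0.125 CPM in the other sham mice; it stands for 1 count against 2, the smallest step that a count can take.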

How the results depend on the processing

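The 9 upregulated genes kept their direction under all alternatives that could test them, in edgeR with other scalings and filters, DESeq2, limma-voom and limma, and without each library in turn. Between 6 and 9 were called, beside 4.31% (glmTreat) to 19.2% (no threshold on the fold change) of all tested genes. The count of 6 came with a filter of 10 counts in every library, which left Casp4, Ripk3 and Mlkl untested and called 9.35% of all tested genes higher. The median log2 fold change lay between 2.21 and 3.17. Casp1 (adjusted p = 0.0856) and Mlkl (adjusted p = 0.152) lost their calls in a test against a log2 fold change of 1 (glmTreat). Nlrc4, never called, had log2 fold changes of -0.0099 (upper quartile), -0.071 (limma-voom), -0.027 (limma on log2(CPM + 1)) and -0.30 to 0.21 without one library.

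Replicate numbers did not pair the mice (correlations of -0.05, -0.10, -0.01 and 0.00 between same-numbered mice). With the number as a replicate block, 9 of the 10 genes were called higher, among 1624 higher and 185 lower genes, and Nlrc4 was at -0.056.

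Of all genes, 3291 were higher and 2199 lower with no threshold on the fold change, 739 and 5 with glmTreat (12 of the pathway genes against 26), and limma called 145 lower. Leaving out one library gave 86 (without sham mouse 1) to 559 (without BCAS mouse 2) lower genes.

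Relative to microglial identity genes, 0 to 1 genes were higher and 2 to 4 lower without one library, and the pseudocount of 0.5 left 1 lower; Ripk3 was then at -0.56 and Mlkl at -0.99, and Pycard and Gsdmd turned to 0.12 and 0.093. Without one library, Pycard ranged from -0.14 to 0.042, Casp4 from -0.11 to 0.12 and Gsdmd from -0.18 to 0.059. With edgeR on microglial counts, 2 were higher and 1 lower, beside 1.16% and 93.6% of all tested genes, with 0.049 for Pycard, 0.018 for Gsdmd and 1.39 for Ripk3. Against activation genes, 0 were higher and 9 lower, beside 0.0175% and 99.4% of all tested genes, with -1.87 for Nlrp3, -1.01 for Naip2 and -2.05 for Casp4. The causes were not tested. The 1 or 2 sham counts of Ripk3 limit its fold change.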
